A study of Homo sapiens with 31 samples.

Results

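The comparison described here is the effect of PP242 on ribosome footprints in HEK293 T-REx cells labelled EIF4A1 KO (knockout). It rests on 4 of the 31 libraries of the series: EIF4A1 KO cells with DMSO (2 libraries), with 1 µM PP242 (1 library) and with 10 µM PP242 (1 library), all labelled with the same genotype. PP242 was given for 30 min, per the labels' protocols. HEK293 T-REx is a human embryonic kidney line that carries a repressor for inducible transgenes. The same design in naive cells (4 libraries) and in EIF4A2 KO cells (4 libraries) serves for comparison. The labels name neither the edit nor the number of clones behind a knockout, and they do not say whether the 2 DMSO libraries came from separate cultures, so p-values measure the spread between these libraries, which may be technical. The 2 doses were joined as a PP242 group of 2 libraries, and each dose is also given alone. With the doses joined, the spread within PP242 groups includes the difference between doses.

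PP242 blocks the kinase mTOR. Its complex mTORC1 promotes cap-dependent translation, in part by phosphorylating the 4E-binding proteins and LARP1. eIF4A1 is the RNA helicase of the cap-binding complex eIF4F, and EIF4A2 encodes its close paralog. The mRNAs best known to lose ribosomes when mTORC1 is off carry a terminal oligopyrimidine (TOP) motif at their start, and they encode ribosomal proteins and elongation factors. LARP1 binds these mRNAs when mTORC1 is inhibited. Ribosome profiling sequences the RNA that ribosomes protect from nuclease, so a footprint count follows both the amount of an mRNA and its translation. The RNA-seq libraries of the series carry no PP242 label. Changes of mRNA level and of translation with PP242 were therefore not separated here.

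The files list Ensembl transcripts without gene names, and no table used here pairs transcripts with genes. Transcripts are therefore described in groups, with 4 given by ID. The level of EIF4A1 in the libraries, the TOP mRNAs and the markers of the cell line were not checked for the same reason. Footprints of 1 gene are counted again in each of its transcripts. Transcripts with equal counts in all files were treated as 1, and for descriptions 1 transcript was kept per locus, which is approximate. The transcript counts of EIF4A1 KO libraries summed to 8166555 and 7467192 in DMSO, 11759126 at 1 µM and 18924586 at 10 µM. Depth thus moved with treatment: the DMSO libraries were the shallower pair, and both are among the 3 smallest of the 12 profiling libraries. In naive cells depth moved the other way, with 16443552 and 19075559 in DMSO, 11754883 at 1 µM and 7933708 at 10 µM. The 2 EIF4A1 KO DMSO libraries differed by more than sampling noise (chi-square divided by its degrees of freedom was 1.24). So did the 2 EIF4A1 KO PP242 libraries (1.72), and this ratio grows with depth. For loci of at least 20 CPM, the SD of the log2 difference was 0.137 for the DMSO pair and 0.129 for the PP242 pair. All changes are relative to the other transcripts of a library, so a uniform loss of translation would not be seen.

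With PP242, more transcripts were called lower than higher in EIF4A1 KO cells, and the changes beyond 1 log2 unit among abundant transcripts were falls. The quasi-likelihood test of edgeR, with a call at an adjusted p under 0.05, called 3739 of 54938 distinct transcripts (6.81%), of which 2277 were lower (4.14%) and 1462 higher (2.66%). Counted over 1 transcript per locus, 729 of 20119 were lower (3.62%) and 493 higher (2.45%). Over all 20119 loci, called or not, the median log2 change was 0.015 and 48.3% of changes were negative. The transcripts called lower had a median log2 change of -0.47 (quartiles -0.80 and -0.33), a median level of 46.9 CPM (the count scaled to its library total, with TMM factors) and a median length of 361. Those called higher had a median of 0.60 (quartiles 0.42 and 0.88), but a median level of only 11.2 CPM. Among the 3490 transcripts with at least 20 CPM in naive DMSO cells, 108 changed by less than -1 on the log2 scale in EIF4A1 KO cells and 0 by more than 1. The calls were sensitive to the test, to single libraries and to depth. Per locus, DESeq2's Wald test called 533 lower and 202 higher, and a fit on the dose score 0, 1, 2 called 0. In edgeR, 334 lower and 119 higher were called without DMSO replicate 1, 473 and 242 without DMSO replicate 2, 482 and 252 without the 1 µM library, and 556 and 452 without the 10 µM library. With all libraries thinned to the smallest, 400 to 441 were lower and 190 to 207 higher.

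**Figure D1:**
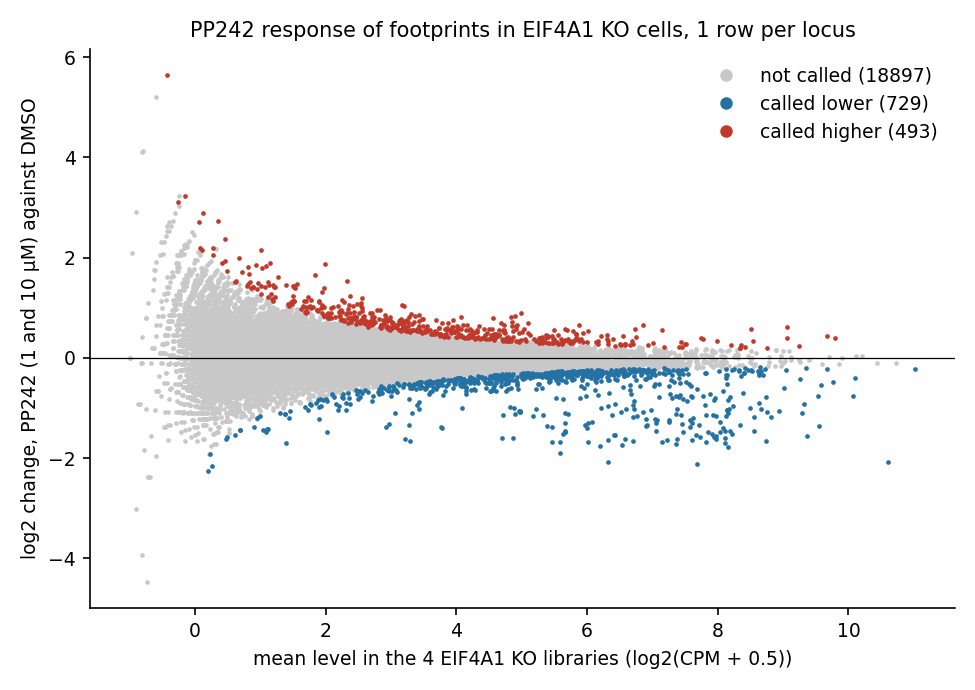
Change of footprints with PP242 in EIF4A1 KO cells (log2, both doses against DMSO, y axis) against the mean level over the 4 libraries (log2(CPM + 0.5), x axis), 1 point per locus. Blue marks the 729 transcripts called lower and red the 493 called higher, and the largest falls among abundant transcripts have no counterpart among the rises.

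The share of transcripts called rose with their level, more steeply for falls. By level in naive DMSO libraries, which are not part of the comparison, 0.521% of 7680 transcripts with 1 to 5 CPM were called lower and 1.35% higher. Of 5656 transcripts with 5 to 20 CPM, 2.69% were lower and 3.45% higher. Of 2897 with 20 to 100 CPM, 10.7% were lower and 5.21% higher. Of the 593 transcripts with at least 100 CPM, 37.1% were lower and 5.73% higher. The class with the highest footprint level thus held the largest share of falls. Its median log2 change was -0.13 in EIF4A1 KO cells, -0.11 in naive cells and -0.16 with EIF4A2 knocked out. Smaller changes can be called at higher counts, and the part of this in the shares was not tested.

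The largest fall among transcripts of at least 20 CPM was that of ENST00000391857.9 (length 194). Its level was 327.4 and 338.9 CPM in the EIF4A1 KO DMSO libraries, 87.5 CPM at 1 µM and 67.4 CPM at 10 µM. Both PP242 libraries were thus far below both DMSO libraries, with no overlap. The log2 change was -2.12 (SE 0.081, edgeR adjusted p 1.9e-29), a 4.34-fold fall. In naive cells the same transcript went from 398.4 and 396.6 CPM to 47.2 at 1 µM and 61.4 at 10 µM, a log2 change of -2.89 (SE 0.086). In EIF4A2 KO cells it went from 322.3 and 309.3 CPM to 40.9 and 36.6 CPM, a change of -3.03 (SE 0.086). DMSO levels were close across the genotypes, and the PP242 levels were highest in EIF4A1 KO cells at each dose. The EIF4A1 KO fall was smaller than that of naive cells by 0.77 (SE 0.12, edgeR adjusted p 3.91e-06) and than that of EIF4A2 KO cells by 0.91 (SE 0.12, edgeR adjusted p 6e-08).

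The next was ENST00000316292.13 (length 453), a row of equal counts that 3 IDs share. It stood at 2587 and 2477 CPM in EIF4A1 KO DMSO libraries, 621.2 at 1 µM and 571.8 at 10 µM. The log2 change was -2.09 (SE 0.070, edgeR adjusted p 5.67e-32), or 4.25-fold. The naive levels were 2802 and 2890 CPM in DMSO against 368.1 and 484.5 CPM with PP242, a fall of 6.70-fold. The EIF4A2 KO levels were 2451 and 2423 against 324.0 and 314.5 CPM, a fall of 7.63-fold. About the same DMSO level thus ended at a higher PP242 level in EIF4A1 KO cells. The differences of response were 0.66 against naive (SE 0.097, edgeR adjusted p 2.25e-06) and 0.85 against EIF4A2 KO cells (SE 0.097, edgeR adjusted p 2.02e-09).

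The rises at this level were smaller. ENST00000304494.9 (length 147) had 18.9 and 24.9 CPM in the EIF4A1 KO DMSO libraries, 43.7 at 1 µM and 38.1 at 10 µM, a log2 change of 0.89 (SE 0.12, edgeR adjusted p 1.72e-08). In naive cells it stood at 33.1 and 36.5 CPM in DMSO, 35.0 at 1 µM and 29.2 at 10 µM, and in EIF4A2 KO cells at 36.1 and 28.8 CPM in DMSO, 34.7 and 33.3 with PP242. In neither did the test call a change (edgeR adjusted p 0.613 and 0.719). The EIF4A1 KO DMSO libraries were below every other library of the 12, and the EIF4A1 KO libraries with PP242 were above both naive DMSO libraries. The difference of response was 0.997 against naive (SE 0.16, edgeR adjusted p 6.74e-06) and 0.825 against EIF4A2 KO cells (SE 0.15, edgeR adjusted p 0.000138). The transcript was chosen for its rise in EIF4A1 KO cells, which enlarges these differences. ENST00000372397.6 (length 125) went from 19.9 and 21.9 CPM to 43.8 at 1 µM and 32.0 at 10 µM, a change of 0.84 (SE 0.12, edgeR adjusted p 2.05e-07). This transcript was higher with PP242 in the other genotypes too, by 0.65 in naive (edgeR adjusted p 1.1e-05) and 0.51 in EIF4A2 KO cells (edgeR adjusted p 0.000445), and its response did not pass the test of a difference (0.19, SE 0.16, against naive, edgeR adjusted p 0.581; 0.33, SE 0.16, against EIF4A2 KO, edgeR adjusted p 0.247).

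**Figure D2:**
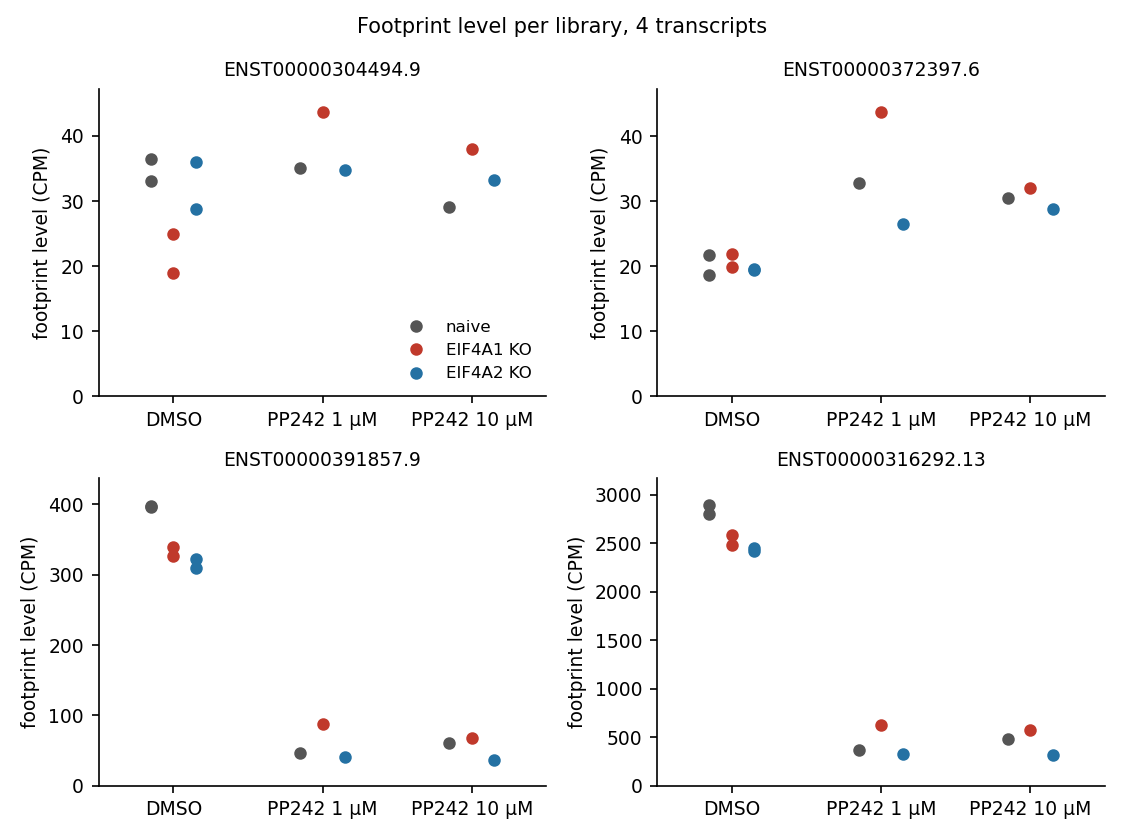
Footprint level (CPM, y axis, from 0) of the 2 transcripts with the largest rises and the 2 with the largest falls in EIF4A1 KO cells (called, at least 20 CPM), in each of the 12 profiling libraries (x axis, treatment; 1 point per library, colour by genotype). The upper pair rose in EIF4A1 KO cells; the lower pair fell in every genotype, with the EIF4A1 KO points highest under PP242.

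Among called loci of at least 20 CPM with no overlap of the groups (530 lower, 172 higher), the 10 largest falls and the 10 largest rises differed in how many were also called in the other genotypes. The 10 falls ran from -2.12 to -1.68 in EIF4A1 KO cells. All 10 were also called lower in naive cells, where they ran from -2.94 to -1.81, and in EIF4A2 KO cells, from -3.53 to -1.98. Over all loci, 5.82% were called lower in naive and 7.34% in EIF4A2 KO cells. The fall was smaller in EIF4A1 KO cells by the test of the difference for 8 of the 10 against naive and 10 of the 10 against EIF4A2 KO cells, with median differences of 0.66 and 0.90. Of all loci, 3.69% passed that test with a higher EIF4A1 KO response against naive and 3.78% against EIF4A2 KO cells. These 10 transcripts had counted regions of 75 to 453 in length and DMSO levels from 73.2 to 2587 CPM. The 10 rises ran from 0.65 to 0.89; below that level rises were larger, and 95 of the 493 called-higher loci rose by more than 1 log2 unit. In naive cells 1 of the 10 rises was called higher and 1 lower, and in EIF4A2 KO cells 2 were called higher and 2 lower. Of all loci, 4.32% were called higher in naive and 5.04% in EIF4A2 KO cells. For 9 of the 10 the rise exceeded the response of naive cells by the test, and for 9 that of EIF4A2 KO cells. The 10 were chosen for their change in EIF4A1 KO cells, which enlarges these differences for rises and lessens them for falls.

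Each dose was then set against DMSO alone. At 1 µM, 3462 of 54938 transcripts (6.3%) were called, 1944 lower (3.54%) and 1518 higher (2.76%). At 10 µM, 2623 (4.77%) were called, 1781 lower (3.24%) and 842 higher (1.53%). The split moved with the test and the library: DESeq2's Wald test called 956 lower and 236 higher at 1 µM, and 888 and 99 at 10 µM. Without DMSO replicate 1, edgeR called 1252 lower and 645 higher at 1 µM, and 1167 and 309 at 10 µM. With 1 library per dose, these tests assume that the lone library varied like the DMSO pairs. Between the doses 4 transcripts were called (0.00728%), all lower at 10 µM, by -0.45 to -0.35 on the log2 scale, and 3314 had an unadjusted p under 0.05 in edgeR; DESeq2's Wald test called 0. Of the 729 loci lower with PP242, all had both PP242 libraries below both DMSO libraries, as had 23.3% of all loci tested. They changed by a median of -0.48 at 1 µM, and of -0.46 at 10 µM. Of the 493 higher loci, 492 had both PP242 libraries above both DMSO libraries, against 25.1% of all loci. They changed by a median of 0.64 at 1 µM, and of 0.55 at 10 µM. The calls were made on the same 4 libraries, so this separation is a description. The rise was larger at 10 µM for 31.6% of them and the fall was larger at 10 µM for 52.3% of the lower loci. The 2 dose comparisons share the DMSO libraries, so they are set side by side only.

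To see which transcripts responded, groups were formed from the response in the other genotypes, which share no library with the EIF4A1 KO comparison. In naive cells 1171 loci were called lower (5.82%) and 870 higher (4.32%), and in EIF4A2 KO cells 1477 lower (7.34%) and 1014 higher (5.04%). Of the 1171 loci lower in naive cells, 348 (29.7%) were called lower in EIF4A1 KO cells and 58 (4.95%) higher. Over all loci these shares were 3.62% and 2.45%. The 1171 loci were more abundant, with a median of 26.7 CPM in naive DMSO cells against 4.13 for all loci. Of loci with 20 to 100 CPM there, 10.7% were called lower and 5.21% higher in EIF4A1 KO cells. In EIF4A1 KO cells the median change of the 1171 loci was -0.10 with 1 µM PP242 and -0.19 with 10 µM. The DMSO libraries stood at 0.00395 and -0.00396 from the DMSO mean. In EIF4A2 KO cells, the same group stood at -0.49. Of the 1477 loci lower in EIF4A2 KO cells, 387 (26.2%) were lower in EIF4A1 KO cells and 40 (2.71%) higher, with medians of -0.12 at 1 µM and -0.18 at 10 µM. That group's median was -0.37 in naive cells. The median of all loci was 0.012 at 1 µM and 0.0067 at 10 µM. Leaving out any one EIF4A1 KO library kept the share of naive-lower loci called lower between 22.3% and 27.8%, where 1.66% to 2.78% of all loci were called lower, and thinning gave 23.2% to 24.3%.

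The transcripts that rose elsewhere had changes centred near 0 in EIF4A1 KO cells. Of the 870 loci higher in naive cells, 39 (4.48%) were called higher and 36 (4.14%) lower, and their median was -0.026 with 1 µM and 0.031 with 10 µM PP242. The same loci had a median of 0.27 in EIF4A2 KO cells. Of the 1014 loci higher in EIF4A2 KO cells, 45 (4.44%) were called higher and 30 (2.96%) lower, with medians of -0.0061 and 0.029, against 0.26 in naive cells. The 2 doses had medians of opposite sign for both groups, each close to 0. Without DMSO replicate 1, 6 of the naive-higher loci (0.69%) were called higher and 2 (0.23%) lower, where 0.591% and 1.66% of all loci were.

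**Figure D3:**
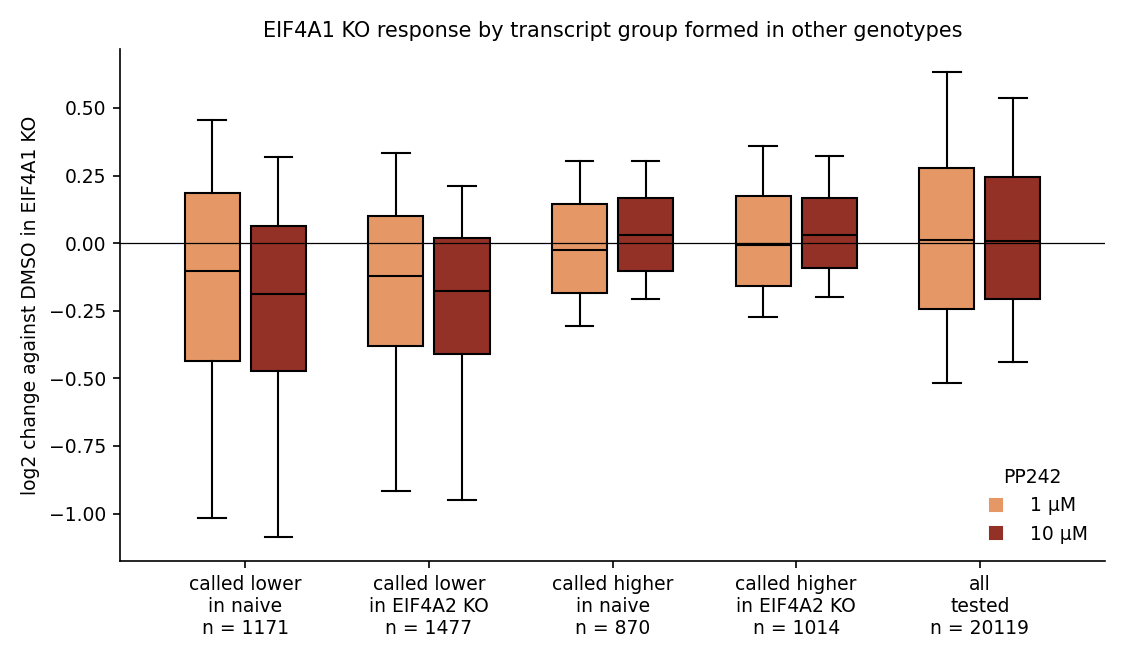
Change of footprints in EIF4A1 KO cells (log2 against DMSO, y axis) at 1 µM and 10 µM for loci grouped by their call in naive or EIF4A2 KO cells, and for all loci tested (x axis). Boxes span the quartiles with the median as a line and whiskers reach the 10th and 90th percentiles; the groups called lower elsewhere have medians below 0 at both doses, with upper whiskers above 0, and the groups called higher elsewhere are centred near 0.

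The loci with the deepest falls in naive cells also had the deepest falls in EIF4A1 KO cells, at a smaller size. The 52 loci that fell by more than 2 log2 units in naive cells had an EIF4A1 KO median of -1.40 at 1 µM and -1.56 at 10 µM, against -2.34 in EIF4A2 KO cells. As medians over both doses these are falls of 2.76-fold and 5.06-fold. Of the 52, 40 were called lower with EIF4A1 knocked out and 41 with EIF4A2 knocked out, where 3.62% and 7.34% of all loci were. The EIF4A1 KO response was above the EIF4A2 KO response for 48 of the 52 loci. Of these 52, 38 passed the test of that difference, with 0 in the other direction. Over all loci, 3.78% passed it with a higher and 2.53% with a lower EIF4A1 KO response. The 227 loci with a naive change of -2 to -1 had medians of -0.64 and -0.82 in EIF4A1 KO cells and -1.29 in EIF4A2 KO cells. Of these, 119 were called lower in EIF4A1 KO cells and 157 in EIF4A2 KO cells.

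For the milder naive falls the EIF4A1 KO medians were close to 0, and alike in both classes. The 400 loci with a naive change of -1 to -0.5 had medians of -0.034 at 1 µM and -0.14 at 10 µM, against -0.57 in EIF4A2 KO cells. In EIF4A1 KO cells 90 of them were called lower, and in EIF4A2 KO cells 257, where 3.62% and 7.34% of all loci were. The 492 loci with the smallest naive falls, above -0.5, had medians of -0.054 and -0.12, against -0.36 in EIF4A2 KO cells. The EIF4A1 KO response was higher than that of EIF4A2 KO cells for 90.8% and 87.6% of these 2 classes. Classes formed in EIF4A2 KO cells gave the same order when EIF4A1 KO was set beside naive cells. The 59 deepest falls had medians of -1.40 and -1.57 in EIF4A1 KO cells and -2.12 in naive cells. Of them, 49 passed the test of a smaller fall in EIF4A1 KO than in naive cells. Over all loci, 3.69% passed the test of a higher response in EIF4A1 KO than in naive cells.

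**Figure D4:**
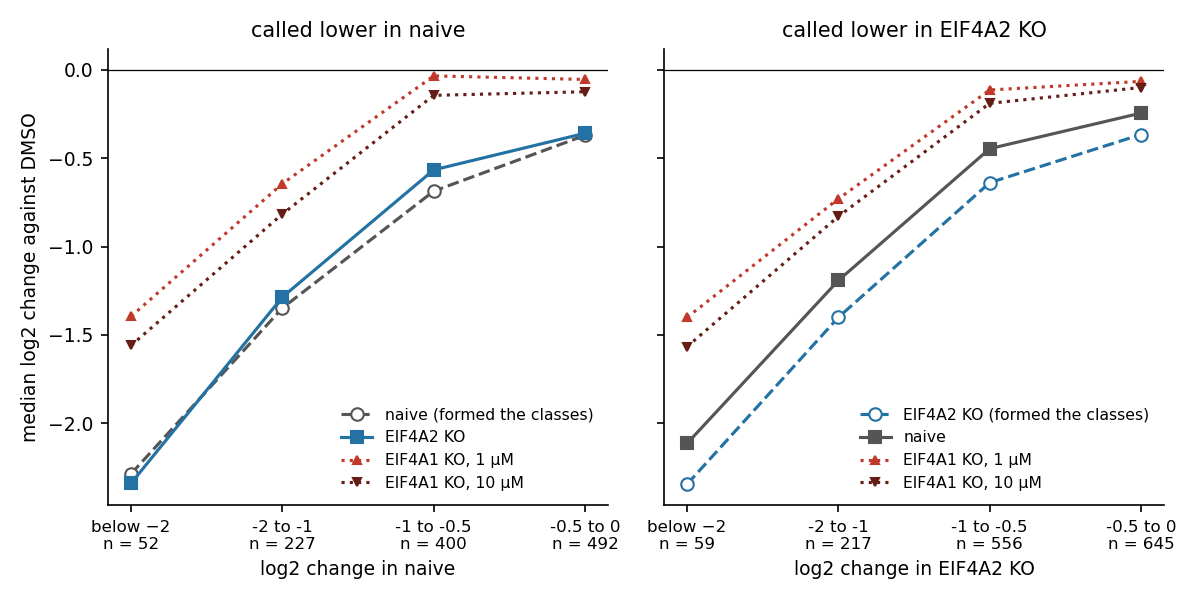
Median log2 change with PP242 (y axis) in classes of loci formed by how far they fell in naive (left) or EIF4A2 KO cells (right; x axis, log2 change and n). Open circles show the genotype that formed the classes, whose values are set by that choice; in every class both EIF4A1 KO doses lie above the other genotype, which had no part in the choice.

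The response itself was then compared between genotypes, locus by locus. Against naive cells 1253 loci differed (6.23%): 742 (3.69%) had a higher and 511 (2.54%) a lower response in EIF4A1 KO cells. Of the 742, 564 had a negative change in naive cells and a positive one in EIF4A1 KO cells, and 166 had a smaller negative change. The 511 were mostly loci with a positive change in naive cells (median 0.31) and a negative one in EIF4A1 KO cells (median -0.23), in 477 cases. They had long counted regions, with a median length of 827 against 244 for all loci. Against EIF4A2 KO cells 1271 loci differed (6.32%), of which 761 (3.78%) had a higher response in EIF4A1 KO cells and 510 (2.53%) a lower one. Here 495 and 476 were of opposite sign in the 2 genotypes, and the 510 had a median length of 900. Of the 742 loci with a higher response than in naive cells, 224 were called higher in EIF4A1 KO cells, where 2.45% of all loci were. In naive cells 454 of the 742 were called lower, where 5.82% of all loci were. Loci that differed were chosen by the difference of the same 2 changes, which favours opposite signs. The counts of signs and calls among them are therefore descriptions. Without DMSO replicate 1, the calls over all distinct transcripts went from 3684 (6.71%) to 1893 against naive and from 3762 (6.85%) to 1830 against EIF4A2 KO cells. Without the 1 µM library they were 2095 and 2185. The tests of a difference were not run on thinned counts, and depth moved with PP242 in opposite directions in naive and EIF4A1 KO cells.

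Some loci responded in EIF4A1 KO cells and were called in neither of the other genotypes. They were 277 of the 729 lower (38%) and 360 of the 493 higher loci (73%). Of all 20119 loci, 16810 were called in neither of the other genotypes. A call in 1 genotype only does not show a difference. Of the 493 higher loci, 58 were called lower in naive cells. They were 4.95% of the naive-lower loci. Of all loci 2.45% were called higher, and of those with 20 to 100 CPM in naive DMSO cells 5.21%. Without DMSO replicate 1, 20 naive-lower loci were called higher (1.71%, against 0.591% of all loci). With thinned counts 30 to 33 were (2.59% to 2.86%, against 1.07% to 1.16%).

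The length of the counted region went with the PP242 response in naive and EIF4A2 KO cells, and this pattern was not seen in EIF4A1 KO cells. Over the 3490 loci with at least 20 CPM in naive DMSO cells, the Spearman correlation of length and change was 0.41 in naive, 0.49 in EIF4A2 KO and -0.036 in EIF4A1 KO cells. The single doses gave -0.063 (1 µM) and 0.0018 (10 µM) with EIF4A1 knocked out. Between the 2 DMSO libraries, length correlated with their log2 difference at -0.10 in EIF4A1 KO, -0.0015 in naive and -0.035 in EIF4A2 KO cells, and the part of this in the result was not tested. Leaving out DMSO replicate 1 gave 0.0012 and leaving out replicate 2 gave -0.057. Loci of 1 library share its depth and normalization and are not independent, so these correlations are descriptions. Among the 2799 loci not called lower in naive cells the correlation was 0.44 in EIF4A2 KO and -0.19 in EIF4A1 KO cells.

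In 5 classes of about equal size by length, the longest class (length 626 to 14498) had a median change of 0.090 in naive, 0.12 in EIF4A2 KO and -0.024 in EIF4A1 KO cells. In that class 10.8% of loci were called higher in naive and 13.6% in EIF4A2 KO cells, against 2.14% in EIF4A1 KO cells, where 5.24% were called lower. The longest class thus had more falls than rises in EIF4A1 KO cells and more rises than falls in the other genotypes. In the shortest class (length 2 to 91) 2.33% were called lower in EIF4A1 KO cells, against 5.25% in naive and 6.61% in EIF4A2 KO cells. The middle class had the highest median in EIF4A1 KO cells, 0.044, and 3.64% of its loci were called higher.

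**Figure D5:**
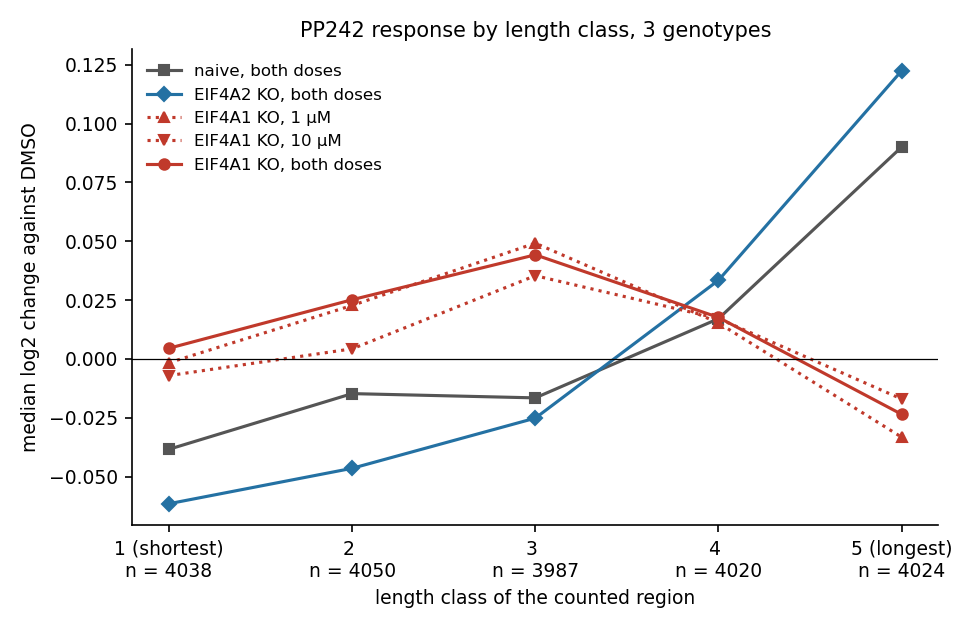
Median log2 change with PP242 (y axis) in 5 classes of loci by length of the counted region (x axis, shortest to longest, n below each class). The lines of naive and EIF4A2 KO cells end at 0.090 and 0.12 in the longest class, and those of EIF4A1 KO cells below 0 at both doses.

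Over the same 3490 loci, the EIF4A1 KO response correlated with that of naive cells at a Spearman rho of 0.23 (Pearson r 0.67) and with that of EIF4A2 KO cells at 0.28 (r 0.69). The naive and EIF4A2 KO responses correlated at 0.86 (r 0.95). None of the 3 pairs shares a library. With the 1 µM library alone as the PP242 group the rho with naive cells was 0.13, and with the 10 µM library alone 0.32. The responses of EIF4A1 KO cells also had the narrowest spread, with an SD of 0.32 against 0.43 in naive and 0.475 in EIF4A2 KO cells. The highest change over these loci was 0.89 in EIF4A1 KO, 0.73 in naive and 2.498 in EIF4A2 KO cells.

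Other libraries of the series describe the loci that fell in EIF4A1 KO cells, and none of them enters the PP242 comparison. These are RNA-seq, pulldowns of tagged (SBP) eIF4A1 or eIF4A2 against input, and inputs after LARP1 siRNA, with 2 libraries per group and values as differences of mean log2 CPM. The 142 loci that fell by more than 1 log2 unit were short (median length 136) and abundant (163.5 CPM in naive DMSO cells). Their median enrichment was 0.85 with SBP-eIF4A1, positive for 88.1% of 134 loci measured, and 0.056 with SBP-eIF4A2. After LARP1 siRNA their input RNA stood at a median of -0.52, and it was above 0 for 3.79% of 132 loci. The matching values over all loci were 0.029, -0.0044 and -0.00094. Their ratio of footprints to RNA in naive cells was low, with a median of -0.40 against -0.031 over all loci.

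The 587 milder falls differed from these in length, pulldown enrichment and the LARP1 siRNA change. Their median length was 457, their enrichment -0.55 with SBP-eIF4A1 and -0.77 with SBP-eIF4A2, and their change after LARP1 siRNA -0.23. Loci of at least 20 CPM that were not called had medians of -0.34, -0.495 and -0.070 in the same readouts, and a median length of 445. A split by the naive response gave a like contrast. The 348 loci lower in both EIF4A1 KO and naive cells had a median length of 205.5, an SBP-eIF4A1 enrichment of 0.37 and a LARP1 siRNA change of -0.445. The 381 loci lower in EIF4A1 KO cells and not called lower in naive cells had a median length of 592, an enrichment of -0.78 and a change of -0.16. The 823 loci lower in naive cells and not called lower in EIF4A1 KO cells had an enrichment of 0.22 and a change of -0.094. Length and level differ between these groups as well, and their part in the other readouts was not tested. In naive DMSO cells the 587 milder falls had a median level of 42.35 CPM. The median was 97.1 CPM for the 348 loci, 30.3 CPM for the 381 and 18.5 CPM for the 823. The RNA difference of EIF4A1 KO to naive cells had a median of -0.054 for the 729 loci (quartiles -0.19 and 0.099) and of -0.13 for the 823 loci.

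The 493 loci that rose in EIF4A1 KO cells had an SBP-eIF4A1 enrichment of 0.47, positive for 71.2% of 489 loci, and an SBP-eIF4A2 enrichment of 0.30, positive for 65.0%. Their change after LARP1 siRNA was 0.095, and the RNA difference of EIF4A1 KO to naive cells was -0.014. Their median length was 296 and their median level in naive DMSO cells 12.9 CPM.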

How the data were processed

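Ribosome profiling counts of 12 libraries were compared. The authors deposited whole-number raw counts per Ensembl transcript and library, without a header. Per the submitters' processing notes, CASAVA 1.8, STAR 2.7.0a and the hg38 build were used; the counting tool and annotation are not given in the sources used here. A second deposited column, equal in all files, was taken to be the counted region's length; its unit is not stated and some values are below 0 (down to -9), so it was used to rank transcripts. Of 227264 transcripts, 94734 had a count, and equal count vectors were collapsed to 77343 rows. For descriptions 1 row per locus was kept (34990): a row was dropped when it correlated at 0.9 or more with a more abundant row within 10 rows, over the 27 libraries outside the comparison.

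All 12 libraries entered 1 fit in edgeR 4.0.16 (R 4.3.3; limma 3.58.1) with TMM scaling, filterByExpr (minimum count 10, total 15), 6 groups of genotype and treatment (9 for single doses), glmQLFit and glmQLFTest, two-sided, with Benjamini-Hochberg adjustment over all 54938 rows. SE is the log2 change divided by the root of F. CPM are TMM-scaled. Other readouts used a prior count of 2, and log2 ratios of single libraries a pseudocount of 0.5. DESeq2 1.42.0 was an alternative. Calls were made at an adjusted p under 0.05. Transcripts given by ID are the 2 largest rises and 2 largest falls per locus with at least 20 CPM in the 4 libraries, a call and no overlap of the groups. The rule for named genes asked for 10 in each direction, gene lists and more; with no gene names, these are given as ranges or left out. The comparison and its tests were chosen with earlier results of these data known.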

Additional observations from a re-analysis of the deposited data

Results flagged for a closer look

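The PP242 response of EIF4A1 KO cells differed from that of the other genotypes by a test of the difference itself (edgeR's quasi-likelihood test, adjusted p under 0.05), for 1253 of 20119 loci against naive and 1271 against EIF4A2 KO cells. Of the 4 transcripts given by ID, 3 also passed this test. The 4 were chosen for their change in EIF4A1 KO cells, which the test subtracts from. That choice enlarges the difference for a rise and lessens it for a fall. ENST00000304494.9 responded by 0.997 more in EIF4A1 KO than in naive cells and by 0.825 more than in EIF4A2 KO cells. ENST00000391857.9 fell less in EIF4A1 KO cells, by 0.774 against naive and 0.91 against EIF4A2 KO cells. ENST00000316292.13 fell less by 0.657 and 0.846. No group had the 4 samples that a test for an outlying library needs.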

How the results depend on the processing

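The call counts moved by over 1.5 times under many alternatives, all with edgeR unless named. For either dose in EIF4A1 KO cells (3739 calls) they were 1213 with 1 row per locus fitted alone, which tests fewer rows and was chosen after the data were seen, 2344 with DESeq2's Wald test, and 2038, 1942, 2004, 2016 and 2000 in 5 draws thinned to the smallest library. With the dose score 0, 1, 2 they were 0, against 5645 at an unadjusted p under 0.05. Leaving out 1 library gave 1557 to 3113. At 1 µM alone (3462) the counts were 1163 by locus, 1192 with DESeq2 and 1897 to 2697 without a DMSO library. At 10 µM alone (2623) they were 871, 987 and 1476 to 2102. Between the doses (4) they were 15 by locus, 0 with DESeq2 (151 unadjusted), 1 with DESeq2 size factors, 34 without a filter and 15 to 16 without a DMSO library. The difference from naive cells (3684) had 1232 by locus, 2029 with DESeq2, 0 with the dose score (5423 unadjusted) and 1893 to 4033 with a library left out. The difference from EIF4A2 KO cells (3762) had 1265, 2216, 1 (4929 unadjusted) and 1830 to 3827 in the same order. Where no construction is named, the cause was not tested. DESeq2 size factors, no filter and the 4 libraries alone left the either-dose count between 3814 and 3903. Of 15 alternatives, the dose score gives a change per step of the score, which is another unit than PP242 against DMSO. Its medians were -0.091 for naive-lower and -0.089 for EIF4A2 KO-lower loci. Over the other alternatives the median of naive-lower loci ranged from -0.19 to -0.10. That of EIF4A2 KO-lower loci ranged from -0.17 to -0.12. The 4 transcripts given by ID kept their direction in all 15, and lost their calls with the dose score (adjusted p 0.11 to 0.381). No paired analysis was possible because the PP242 libraries carry no replicate numbers. Scaling on mitochondrially encoded genes, 1 row per gene and the gene lists were not run, since transcripts were not matched to genes. At 1 to 5 CPM 0.521% of loci were called lower and 1.35% higher, and the part of depth in these low shares was not tested.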

Other observations

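Of the 870 loci called higher in naive cells, 36 (4.14%) were called lower in EIF4A1 KO cells, and of the 1014 called higher in EIF4A2 KO cells, 30 (2.96%), where 3.62% of all loci were called lower. The 410 loci called higher in both had a median length of 853.5 and a median change of 0.0017 in EIF4A1 KO cells. Of these, 169 (41.2%) passed the test of a lower response against naive and 169 against EIF4A2 KO cells. Of all loci, 2.54% and 2.53% did. The 811 loci called lower in both had a median change of -0.22 in EIF4A1 KO cells, and 326 (40.2%) were called lower there and 28 (3.45%) higher. Against EIF4A2 KO cells, 383 of the 811 (47.2%) passed the test of a higher response, and 0 the test of a lower one. Of all loci, 3.78% and 2.53% did. The 410 and the 811 loci were chosen by the responses that these tests subtract. That choice favours the directions seen, so the counts are descriptions. The 5 largest differences towards a higher response than in EIF4A2 KO cells, among loci of at least 20 CPM that passed the test of the difference, were 1.74 to 2.08, at loci that changed by -3.38 to -2.20 in EIF4A2 KO cells and by -1.64 to -0.12 in EIF4A1 KO cells. Those towards a higher response than in naive cells were 1.13 to 1.70, at loci that changed by -2.29 to -0.76 in naive and by -1.17 to 0.50 in EIF4A1 KO cells. Towards a lower response, the 5 largest were -1.31 to -0.72 against EIF4A2 KO and -1.53 to -0.82 against naive cells.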
